A study of Homo sapiens with 4 samples.

Results

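The genes of the proteasome were followed in 4 human hepatoma cultures by RNA sequencing. Members were all rows whose gene symbol starts with PSMA, PSMB, PSMC, PSMD, PSME, PSMF or PSMG and a digit, which took 47 of the 16370 genes listed. Of these, 46 encode proteasome subunits, regulators or assembly factors. The remaining row, PSMC3IP, is a cofactor of meiotic recombination that was named for its binding to PSMC3 and is no part of the particle. The established hepatoma lines Hep3B and Huh7 form the hepatocellular carcinoma (HCC) group. Stem-like lines that the study derived from them, Hep3B-C and Huh7-C, form the hepatic cancer stem cell (HCSC) group. No treatment, passage number or time is given in the labels, and each line is represented by 1 library. How the HCSC lines were grown is not given in the sources used here, so their state, their culture conditions and the spread between libraries cannot be told apart.

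The proteasome breaks down proteins that carry a chain of ubiquitin. Its core particle is a barrel of stacked rings, with alpha subunits (PSMA genes) on the outer rings, which act as a gate, and beta subunits (PSMB genes) on the inner rings, some of which cut the substrate. A cap binds the ubiquitin chain, and its ring of ATPases (PSMC genes) unfolds the substrate and feeds it into the barrel, while its lid and scaffold proteins (PSMD genes) recognise and remove the ubiquitin. After interferon exposure, and in immune cells at rest, the catalytic subunits PSMB5, PSMB6 and PSMB7 can be replaced by PSMB8, PSMB9 and PSMB10 to form the immunoproteasome, which favours peptides that fit MHC class I molecules.

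The library totals were 2896418 gene counts for Hep3B and 4641927 for Hep3B-C, and 4537510 for Huh7 and 4333808 for Huh7-C. Hep3B therefore had the fewest gene counts, although the study lists more total reads for it than for any other of these RNA libraries. A smaller part of its reads was thus assigned to genes, and the part of this in the results was not tested. In Hep3B 3 counts equal 1.04 CPM (counts scaled to the library total), the level that a count of 0 still allows, against 0.646 to 0.692 CPM in the other libraries. Members were well covered at this depth, and 44 of 47 had at least 10 counts in all 4 libraries. The exceptions were PSMB8, PSMB9 and PSMB10. PSMB8 is not listed in the Huh7 pair, whose files leave out genes without a read, and it was taken as 0 there. The testis subunit PSMA8 and the thymus subunit PSMB11 are not listed in either pair. As a check of the cell type, the hepatocyte and hepatoma genes ALB, AFP, APOA1, APOB, TTR, SERPINA1, TF and FGB were listed in all libraries, with summed levels of 57473 and 62363 CPM in Hep3B and Hep3B-C and of 49746 and 26489 CPM in Huh7 and Huh7-C. The lines differed by gene, since SERPINA1 held 183846 of the 225723 counts in Huh7, where ALB had 482, AFP 26 and TTR 13 counts, against 56598 for ALB and 16175 for AFP in Hep3B. ALB, AFP and TTR were therefore low in the Huh7 lines. Of the stem cell surface markers, THY1 is not listed in the Hep3B pair and had 0 and 1 count in Huh7 and Huh7-C. PROM1 (log2 -2.25) and EPCAM (-1.54) were called lower in Hep3B-C than in Hep3B by the test described below, as were 30.4% of all genes. PROM1 lost its call with trends of GC content and length removed (-0.83), and EPCAM with the TMM library sizes used below (-0.95). In the Huh7 pair PROM1 (-0.31) and EPCAM (0.17) were not called. These markers therefore did not set Hep3B-C apart as richer in stem cell surface transcripts.

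The libraries first differed in how much of their RNA came from proteasome genes. All members together stood at 4119 CPM in Hep3B (95% Clopper-Pearson interval 4045 to 4193) and 8383 CPM in Hep3B-C (8300 to 8466). In Huh7 they stood at 8372 CPM (8288 to 8456) and in Huh7-C at 7971 CPM (7888 to 8055). Hep3B was the library that stood apart, since Hep3B-C lay at the level of the Huh7 lines. Of 47 members, 33 had their lowest CPM of the 4 libraries in Hep3B, against 26.3% of all genes, and 39 were lower in Hep3B than in Huh7, against 44.4% of all genes (those of both pairs with at least 20 counts in all). Between the groups the ranges overlapped, with 8177 ± 291 CPM (SD, n = 2) in HCSC and 6245 ± 3007 CPM (SD, n = 2) in HCC. An exact two-sided permutation test over the 4 libraries gave p = 0.667. It left out the pairing of each HCSC line with its parental line, and the smallest p of this unpaired test is 0.333. These intervals cover counting error only, as do all intervals below.

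**Figure D1:**
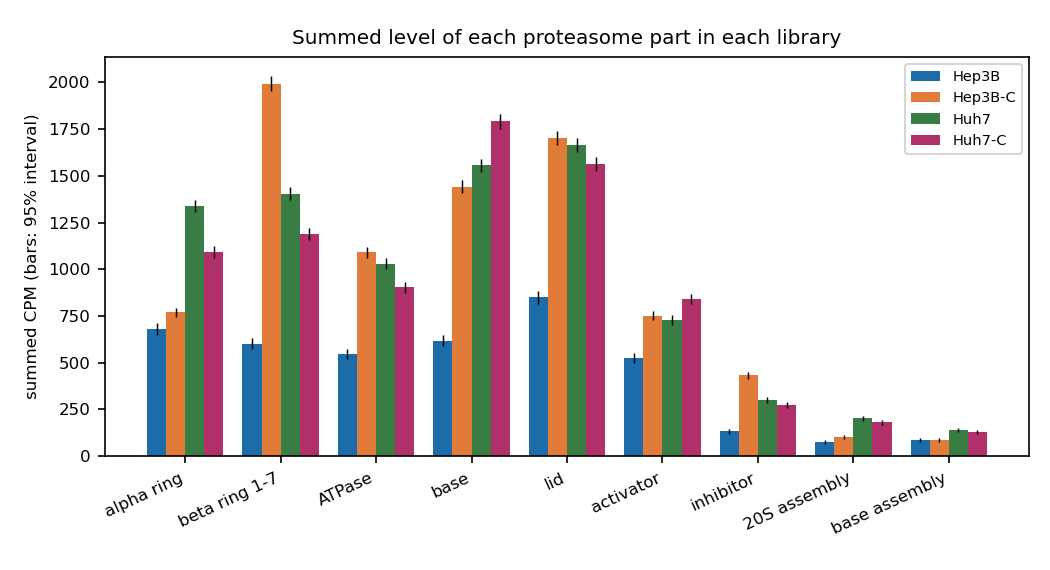
Summed CPM of the genes of each proteasome part (vertical axis) in Hep3B, Hep3B-C, Huh7 and Huh7-C, with 95% Clopper-Pearson intervals as bars. The beta ring PSMB1 to PSMB7 goes from 600 CPM in Hep3B to 1994 CPM in Hep3B-C, while the alpha ring is at 680 and 768 CPM.

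Compared per length, the subunits of the particle were unequal although each is present in fixed copy number in the assembled barrel. Over the 14 alpha and constitutive beta genes the ratio of the highest to the lowest RPKM (counts scaled to gene length and library total) was 4.32 for Hep3B and 18.8 for Hep3B-C, and 10.7 for Huh7 and 10.7 for Huh7-C. PSMA3 held the lowest RPKM of these genes in 3 libraries, and PSMA7 in Hep3B. Over the 4 libraries the highest mean RPKM of a member was that of PSMD2 (282), a scaffold of the cap that docks ubiquitin-like domains, followed by the beta ring gene PSMB3 (260) and the lid gene PSMD8 (230). Within libraries PSMD2 was the highest in Huh7 (335) and Huh7-C (397), PSMB3 in Hep3B-C (449) and PSMA4 in Hep3B (159). The lowest means were those of PSMB8 (0.055), PSMB9 (0.317) and the assembly chaperone PSMG4 (5.41). Across the 43 subunits and factors with 10 counts or more in every library, the log2 RPKM of Huh7 and Huh7-C correlated with Pearson 0.982. The same value was 0.817 for Hep3B and Hep3B-C and 0.908 for Hep3B-C and Huh7. These correlations are across genes, which share their lengths in all libraries and are not independent replicates.

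**Figure D2:**
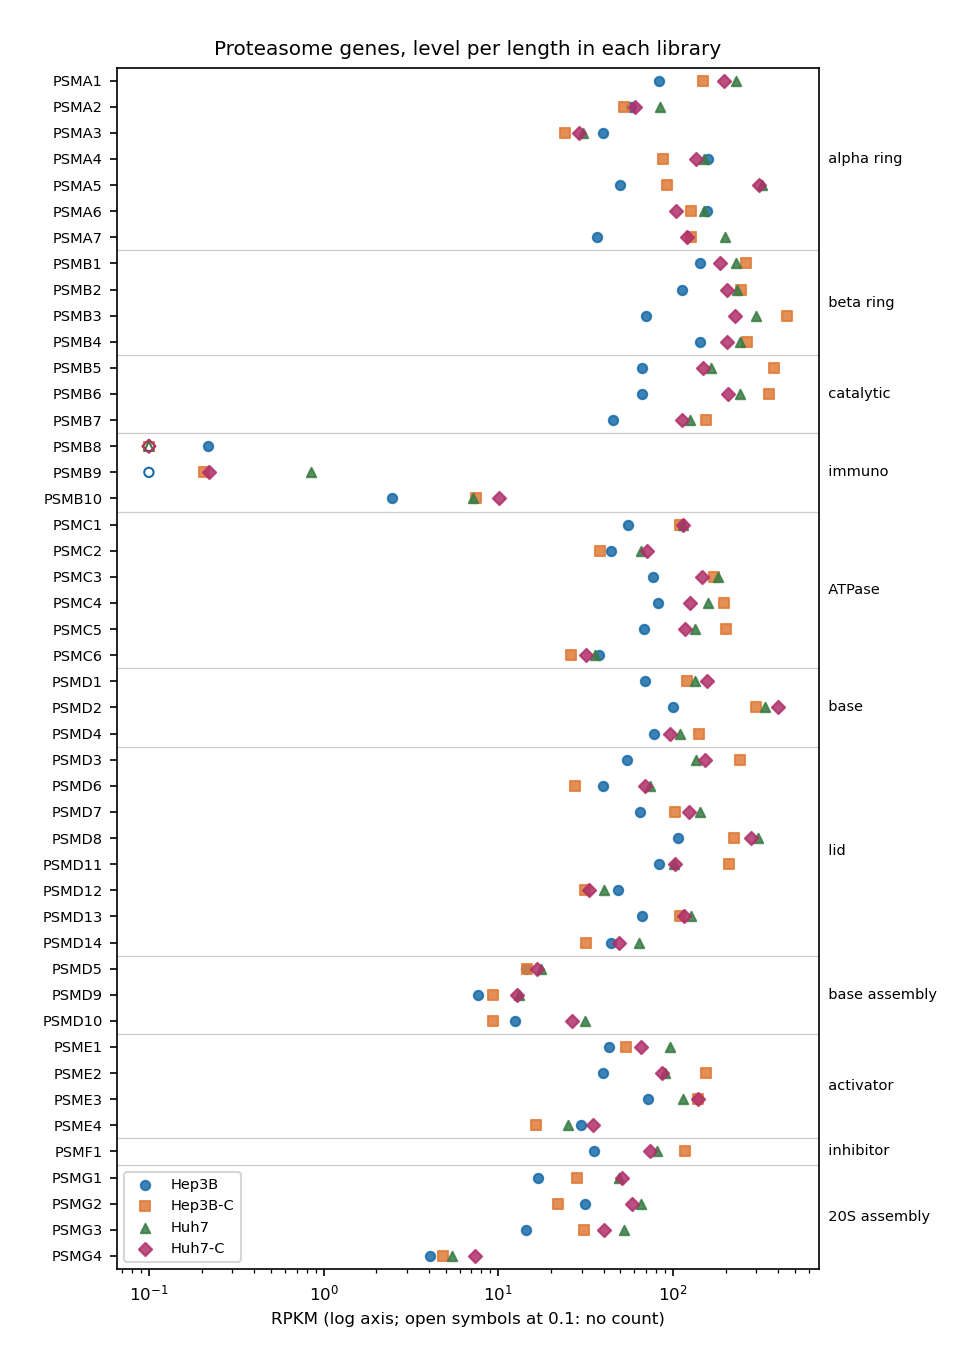
RPKM of the 46 proteasome genes (horizontal log axis) in the 4 libraries, ordered by part of the particle. Open symbols at 0.1 stand for a gene without a count, and PSMB8 and PSMB9 lie far below all other subunits in every library.

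To ask which genes differ between an HCSC line and its parental line, each pair of libraries was compared gene by gene. A gene was called at a false discovery rate (FDR) of at most 0.01 by the Audic-Claverie test and a log2 fold-change (HCSC/HCC) of at least 1 in size. The test compares 2 libraries and not 2 conditions. In the Hep3B pair 17 of 47 members were called up (36.2%), against 13.2% of all genes tested. No member was called down, against 30.4% of all genes. With TMM library sizes, which raise every log2 fold-change of this pair by 0.60, 28 members were called up and 0 down, against 21.6% and 18.1% of all genes. On that scale PSMA2, PSMA6, PSMC2, PSMC6, PSMD6, PSMD10, PSMD14 and PSMG2, which are below 0 when scaled to total counts, lie above 0. With an assumed biological coefficient of variation of 0.4 in place of counting error, 0 were called up or down, against 0.401% and 1.09%. At FDR 0.01 without the fold limit, 36 members differed, 28 higher and 8 lower in Hep3B-C, where 56.9% of all genes passed. The median log2 fold-change of the members was 0.86 and that of all genes with at least 20 counts was -0.55. Of the 47 members, 34 were above 0, against 37.8% of all genes.

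Fold-changes of this pair moved with base composition. Across the 45 members with at least 20 counts, log2 fold-change and transcript GC content correlated with Pearson 0.708 and Spearman 0.727, and across all genes with 0.581 and 0.631. The 22 members of lower GC content had a median log2 fold-change of -0.17, with 3 called up, while all genes in the same GC range stood at -1.34, with 2.28% called up. The 23 members of higher GC content had a median of 1.16, with 14 called up, while all genes in that range stood at 0.34, with 28.6% called up. For this reason a second value (trend-adjusted) is given for many of the genes below. From it the trends of log2 fold-change with GC content and length over all genes had been removed. With it, 20 members were called up, against 10.5% of all genes, and 0 were called down, against 12.6%. The trend-adjusted median was 0.66. The part of GC content in these results was not tested further.

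**Figure D3:**
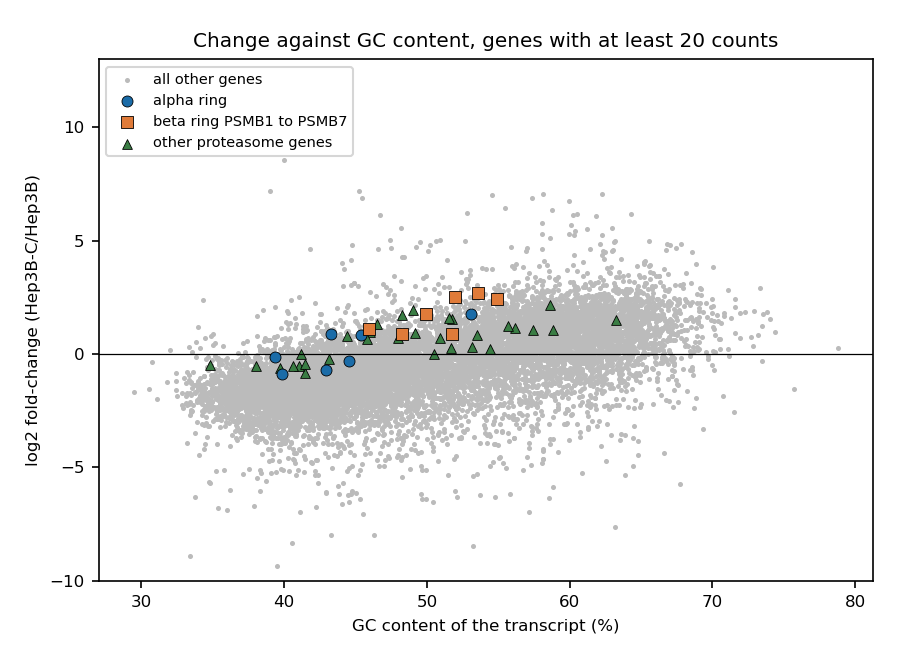
Log2 fold-change of Hep3B-C over Hep3B (vertical axis) against the GC content of the transcript in percent (horizontal axis) for genes with at least 20 counts. Grey points are all other genes, and most proteasome genes lie in the upper part of the grey cloud at their own GC content.

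The outer alpha ring, whose N-termini close the gate of the barrel, had the smallest summed difference of the rings in the Hep3B pair. In Hep3B-C its summed CPM was 1.13 times that of Hep3B (log2 0.18, 95% interval 0.10 to 0.26), and 1 of 7 genes was called up. That gene was PSMA7, at 36.3 CPM in Hep3B and 124 in Hep3B-C, and 196 in Huh7 and 118 in Huh7-C, with a log2 fold-change of 1.77 ± 0.15 (SE) and a trend-adjusted value of 1.08. Its level in Hep3B was the lowest of the 4 libraries. PSMA4 went the other way and had the lowest fold-change of all members with at least 50 counts. It stood at 194, 107, 184 and 164 CPM in the same order of libraries, with a log2 fold-change of -0.86 ± 0.09 (SE) that did not reach the fold limit. PSMA3 had -0.72 ± 0.20 (SE), from 106 counts in Hep3B and 103 in Hep3B-C. With the trends removed PSMA4 stood at -0.10 and PSMA3 at -0.23, and PSMA1 (1.25), PSMA5 (1.37) and PSMA7 were called up.

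The inner beta ring was higher in Hep3B-C in all 7 of its constitutive genes. Its summed CPM was 3.32 times that of Hep3B (log2 1.73, 95% interval 1.66 to 1.81), and 5 of 7 genes were called up, 5 with the trends removed as well. PSMB3, a non-catalytic ring member, had the highest fold-change of all members. It was found with 153 counts in Hep3B and 1573 in Hep3B-C, and with 1014 and 737 in Huh7 and Huh7-C, which are 52.8, 339, 223 and 170.1 CPM. Hep3B was low and Hep3B-C was above both Huh7 lines. The log2 fold-change was 2.68 ± 0.12 (SE, FDR 1.93e-170 by the Audic-Claverie test), with a trend-adjusted value of 1.89. PSMB2, also non-catalytic, was called up with 1.12 ± 0.10 (SE) and a trend-adjusted value of 1.31. PSMB1 (0.87) and PSMB4 (0.91) were at FDR 0.01 but under the fold limit, with trend-adjusted values of 0.84 and 0.40.

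The 3 constitutive catalytic genes were all called up in the Hep3B pair, and their summed CPM was 5.04 times that of Hep3B (log2 2.33, 95% interval 2.21 to 2.46). PSMB5, the chymotrypsin-like subunit that bortezomib binds, was found with 266 counts in Hep3B and 2412 in Hep3B-C, and 1036 in Huh7 and 888 in Huh7-C. PSMB6, the caspase-like subunit, was found with 158, 1352, 910 and 738 counts. PSMB7, the trypsin-like subunit, was found with 129, 707, 561 and 480 counts. All 3 had their lowest CPM in Hep3B and their highest in Hep3B-C. Log2 fold-changes were 2.50 ± 0.09 (SE) for PSMB5, 2.41 ± 0.12 for PSMB6 and 1.77 ± 0.14 for PSMB7, and trend-adjusted values were 2.09, 1.46 and 1.54.

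The unequal change of the rings can be read within a library, where the library total cancels. The ratio of beta ring to alpha ring counts was 0.883 in Hep3B (95% interval 0.828 to 0.942), 2.59 in Hep3B-C (2.50 to 2.70), 1.05 in Huh7 (1.01 to 1.09) and 1.09 in Huh7-C (1.04 to 1.13). Hep3B-C was the library apart in this ratio, and Hep3B lay nearer to the Huh7 lines. The ratio was 2.94 times higher in Hep3B-C than in Hep3B (log2 1.55, 95% interval 1.45 to 1.66), and 1.69 times higher with the trends removed. For Huh7-C against Huh7 it was 1.04 times higher (log2 0.05, 95% interval -0.03 to 0.13), an interval that includes no change, and 1.07 times higher with the trends removed (0.02 to 0.17). Catalytic over non-catalytic beta counts were 2.00 times higher in Hep3B-C (95% interval of the log2 ratio 0.85 to 1.16, with 1.72 times after removal of the trends). The ratio of cap to core counts did not differ beyond counting error in the Hep3B pair, with a log2 difference of -0.04 (95% interval -0.10 to 0.03). With the trends removed this difference was 0.16 (0.09 to 0.23), so its outcome rests on this step. For Huh7-C against Huh7 that ratio was 1.21 times higher in Huh7-C (log2 0.27, 95% interval 0.22 to 0.32, with 1.08 times after removal of the trends).

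Immunoproteasome subunits were near the limit of detection. PSMB8, the counterpart of PSMB5, had 1 count in Hep3B, 0 in Hep3B-C and is not listed in the Huh7 pair. PSMB9, the counterpart of PSMB6, had 0, 1, 4 and 1 counts in Hep3B, Hep3B-C, Huh7 and Huh7-C. PSMB10, the counterpart of PSMB7, had 7, 34, 32 and 43 counts, or 2.42, 7.32, 7.05 and 9.92 CPM. Thus PSMB10 was the only one of the 3 with more than 4 counts in any library. No fold is given for PSMB8 and PSMB9. PSMB8 and PSMB9 sit next to each other in the MHC region of chromosome 6 and their exons overlap on opposite strands, and the files do not say whether counting used the strand.

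PSMB10 was called up in the Hep3B pair, with a log2 fold-change of 1.52 ± 0.58 (SE, FDR 0.00970 by the Audic-Claverie test), close to the limit. Its trend-adjusted value was -0.0042, and of all members its transcript has the highest GC content (63.3%). Between Huh7 and Huh7-C it stood at 0.49 ± 0.33 (SE) and was not called. PSMB8 to PSMB10 together made up 1.43% of the catalytic counts in Hep3B (95% Clopper-Pearson interval 0.618 to 2.79), 0.777% in Hep3B-C (0.542 to 1.08), 1.42% in Huh7 (0.993 to 1.95) and 2.05% in Huh7-C (1.49 to 2.74). The constitutive genes thus had between 47.9 and 128 counts for each immunosubunit count. The log2 ratio of the immuno to constitutive ratios was -0.89 in the Hep3B pair (95% interval -2.00 to 0.23) and 0.54 in the Huh7 pair (-0.10 to 1.18). Both intervals include 0. With the trends removed the values were -1.86 (-2.98 to -0.75) and 0.49 (-0.15 to 1.13), so whether the share was lower in Hep3B-C than in Hep3B rests on this step. Intervals of trend-adjusted values leave out the error of the trend. The defining leukocyte genes PTPRC and CD3E are not listed in any library, and CD14 and ITGAM had at most 6 counts, whereas CD68 and LYZ, which are not confined to leukocytes, had 236 to 1254 counts. Of the fibroblast and endothelial genes, none was called in the Hep3B pair other than COL1A2 (6 and 0 counts, called down). In the Huh7 pair COL3A1 (0 and 58 counts) and PECAM1 (17 and 93) were called up and PDGFRB (186 and 2) was called down, while DCN and CDH5 are not listed in any library. The part of these genes in the results was not tested.

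**Figure D4:**
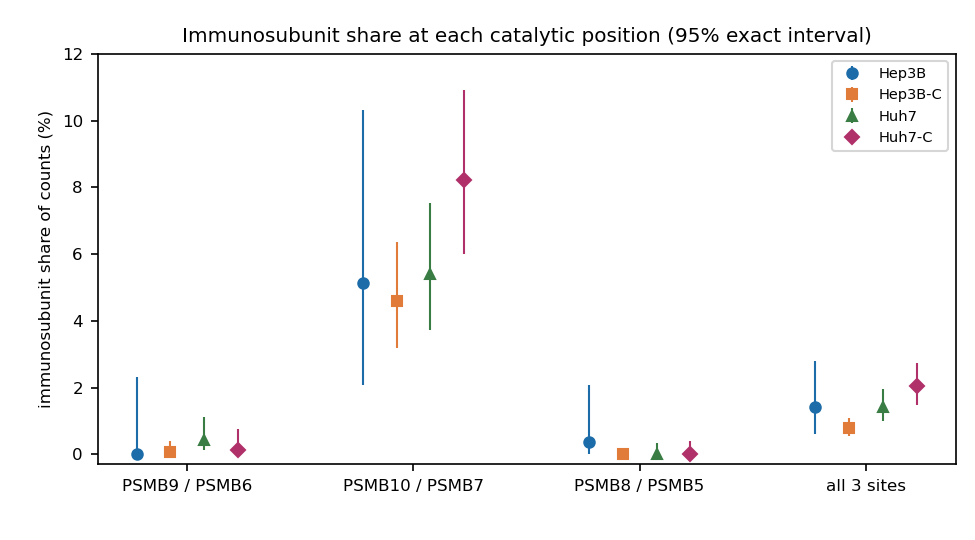
Share of immunosubunit counts in the counts of each immuno and constitutive pair, in percent (vertical axis), for the 4 libraries with exact 95% intervals. PSMB10 makes up 4.59% to 8.22% of its pair with PSMB7, while PSMB9 and PSMB8 stay below 0.5% of theirs.

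The ATPases of the cap were divided. PSMC3 (log2 fold-change 1.16), PSMC4 (1.25) and PSMC5 (1.55) were called up in the Hep3B pair, PSMC1 (0.97) was just under the fold limit, and PSMC2 (-0.21) and PSMC6 (-0.53) were below 0. PSMC5 was found at 90.5 CPM in Hep3B and 265 in Hep3B-C, and 177 in Huh7 and 155 in Huh7-C. PSMC6 was found at 59.7, 41.4, 56.6 and 50.3 CPM and had the lowest RPKM of the 17 cap genes in all 4 libraries. With the trends removed PSMC3 and PSMC4 were at 0.28 and 0.37 and were not called, PSMC1 (1.37) and PSMC5 (1.14) were, and all 6 were above 0. The summed ATPase level was 2.00 times that of Hep3B.

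Among the scaffolds of the cap base, PSMD2 was called up, with 292 CPM in Hep3B and 868 in Hep3B-C, 979 and 1159 CPM in Huh7 and Huh7-C, and a log2 fold-change of 1.57 ± 0.05 (SE). It was the member with the most counts in every library. PSMD1, the other large scaffold, stood at 0.79 and the ubiquitin receptor PSMD4 at 0.86. With the trends removed PSMD2 (1.77) and PSMD1 (1.89) were called up, and PSMD4 (0.21) was not. In the lid, which holds the deubiquitinase PSMD14, 3 of 8 genes were called up. PSMD3 was found at 116, 520.3, 290.0 and 328 CPM in the same order, with a log2 fold-change of 2.16 ± 0.08 (SE) and a trend-adjusted value of 1.33. Hep3B-C was the highest library and Hep3B the lowest. PSMD11 (1.34) and PSMD8 (1.06) were the others. With the trends removed PSMD11 stood at 1.68 and kept its call, and PSMD8 went to 0.05 and lost it. PSMD14 (-0.47), PSMD6 (-0.54) and PSMD12 (-0.62) were below 0 at FDR 0.01 without reaching the fold limit, and all 3 were above 0 with the trends removed (0.66, 0.21 and 0.38).

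The activators, which cap the barrel in place of the ubiquitin-dependent cap, differed among themselves. PSME1 and PSME2 form a shared ring and are interferon-induced in many cells. PSME2 had 95, 592, 338 and 311 counts in Hep3B, Hep3B-C, Huh7 and Huh7-C and was called up in the Hep3B pair (log2 1.95 ± 0.16 SE; trend-adjusted 1.81), whereas PSME1 stood at 0.32 ± 0.15 (SE; trend-adjusted -0.34). The nuclear activator PSME3 was at 0.94, just under the fold limit, and called up with the trends removed (1.55). PSME4, a large nuclear activator, had 210, 116, 177 and 247 CPM and a log2 fold-change of -0.85 ± 0.09 (SE). Its trend-adjusted value was 1.09 and called up, so its direction rests on this step. PSMF1, which inhibits the barrel in vitro, was found at 131, 432, 298 and 273 CPM and was called up (1.72 ± 0.08 SE; trend-adjusted 2.52).

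Assembly factors help to build the particle and are not part of it once it is complete. Their RPKM ran from 4.05 (PSMG4 in Hep3B) to 65.7 (PSMG2 in Huh7). The chaperones of the cap base, PSMD5 (log2 0.01), PSMD9 (0.27) and PSMD10 (-0.42), were not called in the Hep3B pair. PSMD5 had a trend-adjusted value of 1.41 and was called up with it. Their summed level was 0.992 times that of Hep3B (log2 -0.01, 95% interval -0.24 to 0.22). PSMD10, known as gankyrin and first described as a gene overexpressed in hepatoma, was found at 19.3, 14.4, 48.3 and 40.6 CPM, so both Huh7 lines were above both Hep3B lines. Among the chaperones of the barrel, PSMG3 was called up (1.08 ± 0.21 SE), a value that went to -0.08 with the trends removed. PSMG1 (0.73), PSMG2 (-0.52) and PSMG4 (0.22) were not called. PSMC3IP had 17 to 28 counts and a log2 fold-change of 0.02 in the Hep3B pair and 0.41 in the Huh7 pair.

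**Figure D5:**
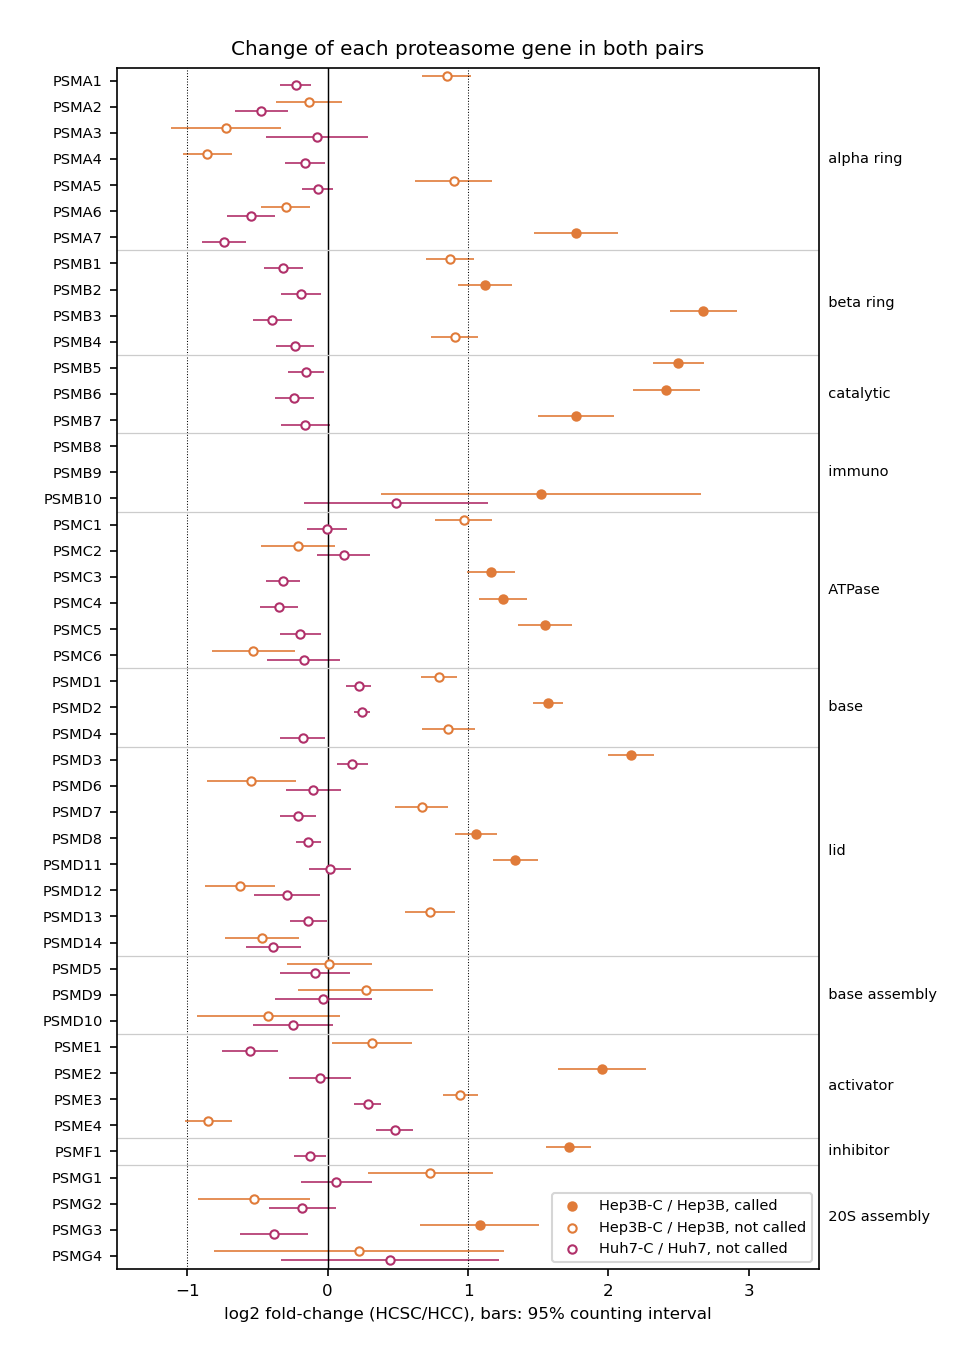
Log2 fold-change (HCSC/HCC) of each proteasome gene with its 95% counting interval in the Hep3B pair and the Huh7 pair, ordered by part of the particle. PSMB8, PSMB9 and PSMC3IP are not drawn. Filled points were called, dotted lines mark the fold limit, and all filled points belong to the Hep3B pair and lie between 1.06 and 2.68.

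In the Huh7 pair no member was called, where 4.19% of all genes were called up and 4.15% down. The median log2 fold-change of the 46 members was -0.16 and that of all genes was 0.06, and 35 of 46 were lower in Huh7-C, where 53.9% of all genes with at least 20 counts were higher. At FDR 0.01 without the fold limit 19 members differed, 14 lower and 5 higher, where 27.6% of all genes passed. The 14 alpha and constitutive beta genes were all below 0, from -0.07 for PSMA5 to -0.74 ± 0.08 (SE) for PSMA7, the largest change among members with at least 50 counts. PSME1 (-0.55) and PSMA6 (-0.55) came next. The genes higher in Huh7-C at FDR 0.01 were the scaffolds PSMD1 (0.22) and PSMD2 (0.24), the lid gene PSMD3 (0.18), and the activators PSME3 (0.28) and PSME4 (0.48). In this pair log2 fold-change correlated with transcript length across members (Pearson 0.393) and across all genes (0.236). With the trends removed 0 members were called, against 2.64% of all genes up and 4.46% down. The median was then 0.0090 and 8 of the 14 barrel genes were above 0, so the lower level of the barrel genes rests on this step.

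The pairs were then compared with each other. The log2 fold-changes differed between the pairs for 29 of 46 members (Wald test on counting errors, FDR at most 0.01), against 49.6% of all genes. In 27 of these the value was more positive in the Hep3B pair, and PSMA4 and PSME4 were the exceptions. The difference was largest for PSMB3, at 3.07 ± 0.14 (SE), followed by PSMB5 and PSMB6 at 2.65 each and PSMA7 at 2.51. To set the difference of HCSC from HCC against the spread of the pairs, all 4 libraries were fitted with edgeR with the parental line as a block. Of 45 members tested 0 were called at FDR 0.05, against 0.077% of all genes, and 0 had an unadjusted p under 0.05, against 3.18% of all genes. DESeq2 also gave 0 of either kind, but the share of all genes in that fit is not given here. The lowest edgeR p of a member was 0.156 (adjusted 0.999). The members' median log2 fold-change in this fit was 0.51, with 34 of 45 above 0, and that of all genes was -0.06.

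Proteasome genes are switched on together by the transcription factor NFE2L1 when proteasome activity falls short. It binds antioxidant response elements (ARE), after processing by NGLY1 and DDI2. The stretches before the start sites of the members were therefore read from RefSeq (GRCh38.p14), where 41 of 47 members matched. Shown first are 3 genes that hold an ARE core (TGACNNNGC on either strand, in capitals): PSMB3 and PSMD3, which were among the genes of highest fold-change in the Hep3B pair, and PSMD12, which was below 0. Bases inside the annotated gene were left off the right-hand ends. PSMB3 is chr17:38752491-38752735 on the plus strand, PSMD3 is chr17:39980557-39980796 on the plus strand and PSMD12 is chr17:67366628-67366827 on the minus strand.
PSMB3: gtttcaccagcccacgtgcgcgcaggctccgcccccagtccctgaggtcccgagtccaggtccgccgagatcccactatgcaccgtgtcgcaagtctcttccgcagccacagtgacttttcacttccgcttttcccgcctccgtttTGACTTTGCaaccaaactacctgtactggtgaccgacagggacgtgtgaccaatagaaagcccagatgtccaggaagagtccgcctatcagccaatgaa
PSMD3: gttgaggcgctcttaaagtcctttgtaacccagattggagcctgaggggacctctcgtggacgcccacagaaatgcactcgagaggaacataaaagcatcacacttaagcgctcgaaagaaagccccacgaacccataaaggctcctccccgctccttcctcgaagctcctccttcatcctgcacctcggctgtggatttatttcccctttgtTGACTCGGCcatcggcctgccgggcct
PSMD12: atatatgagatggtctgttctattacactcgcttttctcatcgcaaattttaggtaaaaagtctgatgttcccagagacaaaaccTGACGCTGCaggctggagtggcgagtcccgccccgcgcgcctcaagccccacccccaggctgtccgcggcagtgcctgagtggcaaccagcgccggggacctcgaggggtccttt
The core began 104 bases before the start in PSMB3, 37 in PSMD3 and 165 in PSMD12. Within the 250 bases before a start it was found in 13 of 41 members (31.7%), against 13.2% of all 27305 genes of the table and 15.6% of the 12679 of these that are listed in the count files. It was found in 4 of the 13 matched members called up in the Hep3B pair (30.8%) and in 9 of the 28 others (32.1%). The 6 members not matched in RefSeq, PSMA7, PSMB1, PSMB6, PSMB7, PSMD4 and PSMG3, were not searched. Of these, PSMA7, PSMB6, PSMB7 and PSMG3 were called up in the Hep3B pair. The CCAAT box (CCAAT), which binds NFY, was found in 19 of 41 members (46.3%) against 37% of all genes and 40.8% of listed genes. The ETS core (CCGGAAG) was found in 11 of 41 (26.8%), against 10.2% and 16.5%. Both strands were searched, a gene with several starts counted if any of them held the motif, matches of different motifs may overlap, and a match is a match of letters only.

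Interferon acts on the immunosubunits and on PSME1 and PSME2 through elements of repeated GAAA letters. An ISRE-like motif (TTTC, any 2 letters and TTTC again, on either strand) was found in 5 of 41 members (12.2%), against 3.71% of all genes and 3.42% of listed genes, namely PSMA4, PSMB4, PSMB10, PSME2 and PSMG4. Shown are 30 bases around the match in the immunosubunit PSMB10, chr16:67936852-67936881 on the minus strand, and in PSME2, chr14:24146619-24146648 on the minus strand, with the match in capitals.
PSMB10: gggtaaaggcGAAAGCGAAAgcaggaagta
PSME2: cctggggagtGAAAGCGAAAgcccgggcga
The same 10 letters stood in both, beginning 21 bases before the start in PSMB10 and 28 in PSME2. PSMB10 was found with 7 to 43 counts and PSME2 with 95 to 592. A motif like the gamma-activated sequence of interferon-responsive promoters (TTCNNNGAA) was found in 6 of 41 members (14.6%), PSMB8 among them, against 8.09% of all genes.

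Lists of genes around the proteasome were followed next. In the Huh7 pair their counts stand against 4.19% of all genes called up and 4.15% called down, or 2.64% and 4.46% with the trends removed. In the Hep3B pair their counts stand against 13.2% of all genes called up and 30.4% called down, or 10.5% and 12.6% with the trends removed. Of 21 proteasome-associated and delivery factors, 4 were called up and 5 down in this pair, and 7 up and 0 down with the trends removed. The barrel maturation factor POMP (log2 1.18), the ubiquitin receptor ADRM1 (2.39), the cap assembly factor PAAF1 (2.00) and the unfoldase VCP (2.05) were called up. Of these ADRM1 lost its call with the trends removed (0.92). USP14 (1.45), KIAA0368 (1.10), UBQLN2 (1.06) and UFD1L (1.13) gained an up call with the trends removed. UCHL5 (-1.54), UBE3A (-1.07), UBE3C (-1.59), RAD23B (-1.04) and ZFAND5 (-1.10) were called down, and with the trends removed none of these 5 was. In the Huh7 pair the arsenite-inducible ZFAND2A was called down (-2.01, trend-adjusted -1.76). SHFM1 was not called there (0.63) but was called up with the trends removed (1.01).

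Of 4 genes that supply or activate ubiquitin, the polyubiquitin gene UBB (1.41) and the activating enzyme UBA1 (2.01) were called up in the Hep3B pair and the alternative activating enzyme UBA6 (-2.03) was called down, and none was called in the Huh7 pair. UBA1 (1.69) was also called with the trends removed, and UBB (0.51) and UBA6 (0.09) were not. The summed level of the 4 was 1249 CPM in Hep3B and 2609 in Hep3B-C, and 2666 in Huh7 and 2853 in Huh7-C. Hep3B was again the low library in this sum. UBA6 alone went the other way, with 27.5 RPKM in Hep3B and 6.75, 2.87 and 3.76 in Hep3B-C, Huh7 and Huh7-C.

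Of 8 genes of the NFE2L1 and NFE2L2 control, the NFE2L2 repressor KEAP1 (1.18) was called up and the deglycosylase NGLY1 (-1.33) was called down in the Hep3B pair. Neither was called with the trends removed (0.35 and -0.16). The protease DDI2 was called up in the Huh7 pair (1.62, trend-adjusted 1.74, from 13 to 39 counts). NFE2L1 itself stood at -0.59 in the Hep3B pair and -0.05 in the Huh7 pair and was not called.

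Of 12 interferon signalling genes, 1 was called up (ISG15, 2.64) and 5 down in the Hep3B pair, among them the receptor chain IFNGR1 (-2.22) and the ISG15-conjugating enzyme UBE2L6 (-1.60). With the trends removed 2 were called up, ISG15 (1.02) and IFNAR1 (1.10), and 3 down, IFNGR1 (-1.03), IFNGR2 (-1.26) and UBE2L6 (-2.61). Between Huh7 and Huh7-C, IRF9 (-2.11) and UBE2L6 (-1.76) were called down, with the trends removed as well, and 0 were called up. Of 13 antigen processing genes, 12 were listed in the Hep3B pair and ERAP1 (-1.68) was called down there. ERAP1 stood at 0.22 with the trends removed and was not called, while HLA-B (-1.95) and HLA-C (-1.35) were called down and the peptide transporter TAP2 (1.96) was called up. In the Huh7 pair HLA-B (-1.07) and HLA-C (-1.33) were called down, and HLA-B lost its call with the trends removed (-0.94). TAP1, which lies beside PSMB9, had 7, 7, 86 and 60 counts in Hep3B, Hep3B-C, Huh7 and Huh7-C.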

How the data were processed

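RNA of 4 cell lines, 1 library each, was sequenced by the authors on an Illumina Genome Analyzer II, filtered, aligned with NextGENe to NCBI Build 36.1 and counted per transcript. The deposited values were raw counts per gene with the gene length. Annotation, strand use and the handling of reads that match several places were not given in the sources used here. In GENCODE 29, 12 members have named pseudogenes (32 in all, 13 of them of PSMC1). Exon bases are shared with a gene on the opposite strand by 20 members. With a gene on the same strand they are shared by 8, among them the called PSMB10, PSME2 and PSMF1. The counts of all these members are less certain.

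Computed here were CPM and RPKM (from total gene counts), log2 fold-changes (0.5 added to each count; Poisson SE), the Audic-Claverie test with the tail doubled, and Benjamini-Hochberg FDR over all genes of a pair. The joint fit used edgeR 4.0.16 (quasi-likelihood, TMM, filterByExpr, parental line as block, 1 residual degree of freedom, genes absent from a pair taken as 0). The labels give the lines no replicate numbers. Each HCSC line was paired with its own parental line, and their deviations from group means correlated at 0.532. A count of 0 still allows 3 counts, which sets the CPM floors. GC content came from GENCODE 29 transcripts (build 38) and promoters from RefSeq, both as annotation only, since the alignment used an older build. Trends were lowess curves over genes with at least 20 counts with a span of 0.3.

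Alternatives were TMM and DESeq2 1.42.0 size factors, a filter of 10 counts, 5 added to each count, removal of the length trend or of both trends, an exact binomial test, an assumed biological coefficient of variation of 0.4, a 1.5-fold limit, and centring on the median gene. The tests were run on simulated data first. The members and gene lists were chosen with earlier results of these data known. Genes named were the catalytic genes, called members, those of extreme RPKM and, per pair, the 3 largest rises and falls with at least 50 counts. Others in the text were named to complete a group. A few genes of the lists are not reported here and were left out of their lists' counts. Analyses used Python 3.11.15 and R 4.3.3.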

Additional observations from a re-analysis of the deposited data

Results flagged for a closer look

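The log2 fold-change of Hep3B-C over Hep3B differed from that of Huh7-C over Huh7 for the following named members, by a Wald test on counting errors with FDR over all genes. With 1 library per line, a difference between pairs can come from any of the 4 libraries. The Hep3B value was more positive in the alpha ring for PSMA7 by 2.51 on the log2 scale. In the beta ring it was more positive for PSMB2 by 1.31, PSMB3 by 3.07, PSMB5 by 2.65, PSMB6 by 2.65 and PSMB7 by 1.93. In the cap it was more positive for PSMC3 by 1.48, PSMC4 by 1.60, PSMC5 by 1.74, PSMD2 by 1.33, PSMD3 by 1.98, PSMD8 by 1.19 and PSMD11 by 1.32. Among regulators and assembly factors it was more positive for PSME1 by 0.87, PSME2 by 2.01, PSMF1 by 1.84 and PSMG3 by 1.46. The difference was negative for PSMA4 (-0.70) and PSME4 (-1.33).

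The median log2 fold-change of the members was higher in the Hep3B pair than in the Huh7 pair by 1.02, and this difference was not tested.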

How the results depend on the processing

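The number of members called up in the Hep3B pair was 28 with TMM library sizes, DESeq2 size factors, a 1.5-fold limit or centring on the median gene. Of all 15480 genes of the pair, 3348, 3549, 2667 and 3236 were called up in these settings, in the same order. With an assumed biological coefficient of variation of 0.4 the number of members was 0, where 0.401% of all genes were called up. TMM raised every log2 fold-change of this pair by 0.60 and DESeq2 size factors by 0.68, so PSMC6 and PSMD6, which are below 0 when scaled to total counts, lie above 0 on those scales. Members called down there were 3 with the length trend removed (PSMA3, PSMA4 and PSMG2) and 4 with a 1.5-fold limit (PSMA3, PSMA4, PSMD12 and PSME4). Of all 15480 genes, 2749 were called down with the length trend removed and 5564 with a 1.5-fold limit. The median of the members was 1.45 with TMM, 1.54 with DESeq2 size factors and 0.49 with the length trend removed. In the Huh7 pair 1 member (PSMA7) was called down with a 1.5-fold limit, against 1159 of all 14807 genes. The median of the members there was -0.0046 with the length trend removed and 0.0090 with both trends removed. With both trends removed in the Hep3B pair, PSMB10 went to -0.0042, PSME4 to 1.09 and PSMG3 to -0.080. By construction those trends follow all genes of the pair, and the cause was not tested. The immunosubunit share was 0.458%, 0.377%, 0.561% and 0.848% against PSMB1 to PSMB7 in Hep3B, Hep3B-C, Huh7 and Huh7-C, 5.15%, 4.59%, 5.40% and 8.22% for PSMB10 against PSMB7, 0%, 0.0739%, 0.438% and 0.135% for PSMB9 against PSMB6, and 0.375%, 0%, 0% and 0% for PSMB8 against PSMB5. The edgeR fit called 0 members with the replicate block of parental line, against 0.077% of all genes. It called 0 with no replicate block, where the share of all genes is not given here. Fits with a library left out hold a lone library in an arm, which is then assumed to vary like the others. Their calls are therefore not given. Among the genes named by the rule given above, which takes every called member, 289 of the other values kept their side of the limit. Of the rest, 9 lost the call and 2 gained it. This tally covers TMM, DESeq2 size factors, the low-count filter, the larger added count, and removal of the length trend or of both trends. It does not cover the binomial test, the assumed biological coefficient of variation, the 1.5-fold limit or centring. With the assumed coefficient of variation of 0.4, every called member lost its call. Other members were left out of this tally. Of those, PSMA1, PSMA5, PSMC1, PSMD1, PSMD5, PSMD7 and PSME3 gained an up call in the Hep3B pair with both trends removed. Depth limited PSMB8 and PSMB9, and variation between cultures was not measured.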
